A study of Rattus norvegicus with 6 samples.

Results

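The cathepsin proteases were followed on 6 Illumina rat beadchips hybridised with RNA of cultured primary astrocytes. The rule took every probe whose platform gene symbol is 1 of 8 lysosomal cathepsins, Ctsb, Ctsc, Ctsd, Ctsh, Ctsk, Ctsl, Ctss and Ctsz. Of these 8 genes, 7 had a probe, 1 each, and all 7 passed the filter on dim probes, against 7580 genes tested of 13337 named genes on the array. Ctsz, a carboxypeptidase, has no named probe and was not analysed here.

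All cells carried a GFAP-tTA transgene, in which the promoter of the astrocyte filament gene Gfap drives tTA, a transcription factor that switches on TRE promoters when doxycycline (Dox) is absent. The 3 tTA control arrays held RNA of cells from single transgenic rats with GFAP-tTA only. The 3 M337V arrays held RNA of cells from GFAP-tTA/TRE-TDP43M337V rats, so that Dox withdrawal induces mutant TDP-43, an RNA-binding protein linked to amyotrophic lateral sclerosis. Dox had been withdrawn for 3, 4 or 6 days when RNA was taken, with 1 array per genotype and day. The sources used here give no age of the rats. Nothing in the labels says that a genotype's arrays are separate cultures, so the p-values measure how the genotype difference varied between the 3 days, and this spread may be technical. If each genotype was 1 culture, a difference between cultures and the genotype cannot be told apart.

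Cathepsins are the proteases of the lysosome. Most are cysteine proteases of the papain family and cathepsin D is an aspartic protease. They are made as inactive precursors, carried to the lysosome largely by mannose 6-phosphate receptors, and activated at acid pH, where they break down proteins that arrive by endocytosis and autophagy. Cystatins and some serpins inhibit those that escape. Cathepsins B, D and L are made by nearly all cells, while cathepsin S is in the brain above all an enzyme of microglia and macrophages.

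Levels below are log2 of normalized signal from 1 probe, which allow a gene to be compared between arrays but not 1 gene with another. Differences are M337V minus tTA on this scale, and a gene was called at a Benjamini-Hochberg adjusted p under 0.05 over all 7580 genes in limma. The mean signal was 468 to 481 on the control arrays and 377 to 554 on the M337V arrays, of which the day 3 array was the dimmest. Gfap was detected on all 6 arrays at mean levels of 15.01 (tTA) and 15.07 (M337V), and all 10 astrocyte marker genes on the array passed the filter. The rat Tardbp probe differed by 0.23 ± 0.10 (SE, n = 3 days, adjusted p = 0.187), and the sources used here do not say whether it can bind the transgene's transcript.

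Cathepsin genes differed between the genotypes in both directions. Of the 7 tested, Ctss and Ctsb rose in M337V, Ctsl fell, and 4 (Ctsk, Ctsh, Ctsc and Ctsd) did not pass. Over all genes tested, 9.75% were called higher and 9.85% lower. Ctss was at least 42.2-fold higher on the background-corrected scale with an offset of 16, a bound because 2 of its 3 control values were not above background. Ctsb was 1.48-fold higher and Ctsl 1.56-fold lower. The median difference of the 7 cathepsins was 0.40, beside -0.05 over all genes tested. With 4 of them higher and 3 lower, that median is the value of Ctsh, which did not pass.

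**Figure D1:**
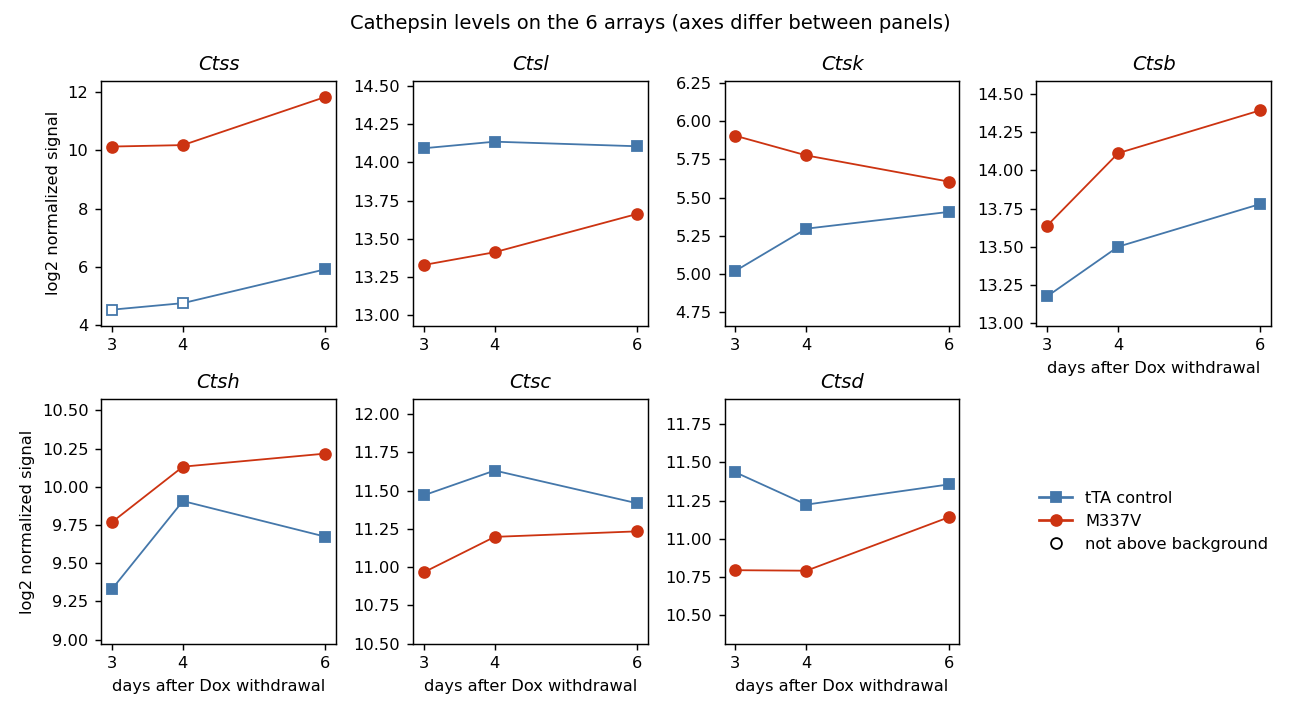
Level of each cathepsin (log2 normalized signal, vertical axes differ between panels) against days after Dox withdrawal, 1 point per array, tTA as squares and M337V as circles, with open points not above background. Ctss runs from 4.54 to 5.92 in tTA and from 10.13 to 11.83 in M337V, while in the other panels the genotypes lie less than 0.90 apart on every day.

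Ctss encodes cathepsin S, an endopeptidase that stays active at neutral pH and trims the invariant chain of class II molecules in antigen-presenting cells. Its probe (ILMN_1352236) read 4.54, 4.77 and 5.92 in tTA on days 3, 4 and 6. In M337V it read 10.13, 10.18 and 11.83. The signals before normalization were 94.3, 106 and 133 in tTA and 923, 1395 and 4378 in M337V. All 3 M337V arrays lay far above all 3 controls, and the control values of days 3 and 4 were not above background. Ctss met the filter through its M337V arrays, which alone reach the required 3 detections.

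The difference of Ctss was 5.59, 5.41 and 5.90 on days 3, 4 and 6, and 5.64 ± 0.13 in the fit (SE, n = 3 days, adjusted p = 5.83e-05). Its size rests on control values at background, so on this scale it is given as a bound of at least 42.2-fold. That bound, with those values set at the lowest detected signal, holds only on the background-corrected scale with an offset of 16. The difference was 4.63 with an offset of 50, 3.99 without background correction and 3.90 with the deposited values. These are all smaller than the bound, so the size depends on the processing. Because its M337V arrays alone admitted Ctss to the test, the fit was also run with no filter on dim probes, where 4.96% of 13337 genes were called higher and 4.64% lower, and the adjusted p of Ctss was 5.52e-05. With detection required on all 6 arrays Ctss was not tested. It was the only cathepsin at least 2-fold higher on any day, which it was on all 3. At that size, with no test, 4.32%, 4.31% and 5.33% of the genes detected on days 3, 4 and 6 were higher in M337V.

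Most of the tested genes of microglia and macrophages moved with Ctss. Of 17 such genes tested, 14 rose, none fell and 3 (Itgam, Cx3cr1 and Hcls1) did not pass, with a median difference of 3.63. These numbers are shaped by the filter, since 8 of the 17 were detected on no control array and 5 on only some, and genes that passed through their M337V arrays could hardly fall. With no filter, 15 of the 22 genes on the array rose and none fell (median 2.79), and of the 4 tested genes detected on all controls 3 rose. The summed normalized signal of the 17 was 771, 760 and 1076 in tTA and 9488, 11619 and 28011 in M337V on days 3, 4 and 6. From day 3 to day 6 the M337V sum grew 2.95-fold and Ctss 3.25-fold. In tTA the sum grew 1.40-fold, and Ctss was above background on day 6 only, so no fold is given. Such a sum gives most weight to the brightest probes. Among these are Fcer1g, C1qb and Lcp1, the profiles nearest to Ctss, so its likeness to Ctss is partly built in. Of the 22 genes of this list on the array, 16 were detected on all 3 M337V arrays, 12 on no control array and 4 on all 3 controls. Spi1, a myeloid transcription factor, and Cd163, a macrophage scavenger receptor, were detected on no array. Tmem119 was detected on 1 tTA and 1 M337V array, P2ry12 on 1 M337V array and Fcgr2b on 2 M337V arrays. These too were not tested. The part of such cells in the Ctss result was not tested, and in bulk RNA more cells of a type and more RNA per cell cannot be told apart.

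The profiles most like that of Ctss belonged to genes of the same list. Likeness was measured as the Euclidean distance between the log2 values over the 6 arrays, each gene centred on its own mean. Fcer1g, the Fc receptor gamma chain, lay nearest at a distance of 0.63, followed by the complement chain C1qb at 0.79 and the actin-bundling protein Lcp1 of leukocytes at 0.89. Fcer1g and Lcp1, detected on all controls, differed by 5.73 and 5.28, in a direction that the choice by profile fixed. C1qb, detected on 1 control, was at least 46.9-fold higher on the background-corrected scale with an offset of 16. Aif1, which encodes the microglial protein IBA1 and was also detected on 1 control, was at least 55.9-fold higher on that scale. In the deposited values the log2 differences were 4.1 for C1qb and 4.43 for Aif1.

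**Figure D2:**
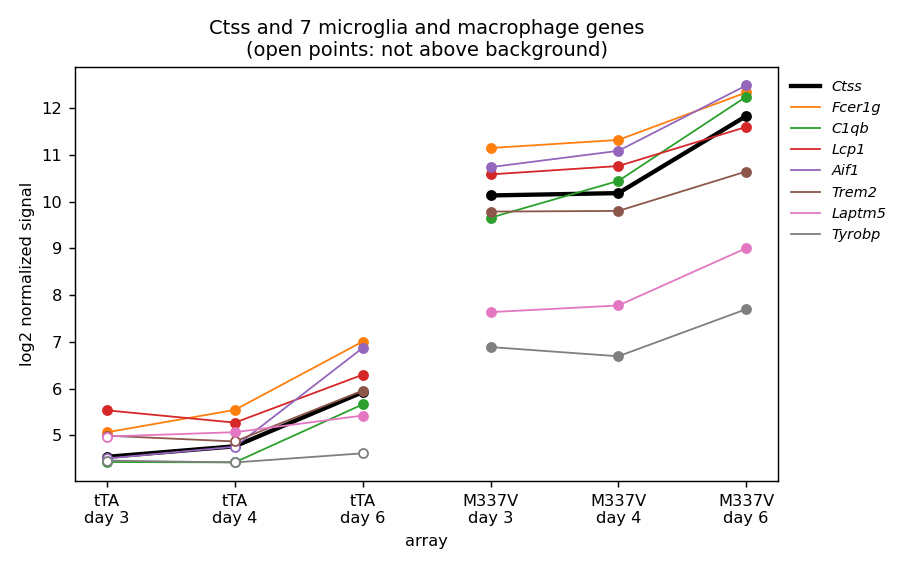
Levels (log2 normalized signal) of Ctss (thick black line) and 7 microglia and macrophage genes on each of the 6 arrays, with open points not above background. Fcer1g, C1qb and Lcp1 were chosen as the profiles nearest to Ctss, and Aif1 and Laptm5 as large rises of their lists. Trem2 and Tyrobp were chosen after their values were seen. Every line is higher on all 3 M337V arrays than on all 3 tTA arrays, which this choice largely fixed. Itgam, Cx3cr1 and Hcls1, which did not pass, are not drawn. Heights of different lines are not comparable because each is another probe.

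The regions upstream of 4 genes are shown: Ctss, which had the largest difference of the cathepsins, its chromosomal neighbour Ctsk, Ctsl, which fell, and Ctsd, which holds a motif of lysosomal genes. Each run is the 250 bases before the annotated start from RefSeq on GRCr8, 5′ to 3′ on the strand of the gene. Exact matches to 3 motifs are in capitals, searched on both strands: CACGTG (the core of E-boxes and of the CLEAR element of lysosomal genes, its own reverse complement), GAGGAAGT (the core bound by PU.1, the product of Spi1, reverse complement ACTTCCTC) and TATAAA (the TATA box, reverse complement TTTATA).
Ctss chr2:185775146-185775395 (+ strand): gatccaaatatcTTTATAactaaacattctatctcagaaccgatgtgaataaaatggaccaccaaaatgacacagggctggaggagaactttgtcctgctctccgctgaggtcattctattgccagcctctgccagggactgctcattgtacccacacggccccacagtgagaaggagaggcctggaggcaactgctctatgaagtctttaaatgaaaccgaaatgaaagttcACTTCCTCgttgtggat
Ctsk chr2:185747298-185747547 (+ strand): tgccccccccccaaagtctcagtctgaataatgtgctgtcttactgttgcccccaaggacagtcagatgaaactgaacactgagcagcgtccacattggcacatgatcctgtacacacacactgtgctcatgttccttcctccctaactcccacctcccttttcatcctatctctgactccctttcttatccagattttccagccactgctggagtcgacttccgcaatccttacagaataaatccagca
Ctsl chr17:769854-770103 (+ strand): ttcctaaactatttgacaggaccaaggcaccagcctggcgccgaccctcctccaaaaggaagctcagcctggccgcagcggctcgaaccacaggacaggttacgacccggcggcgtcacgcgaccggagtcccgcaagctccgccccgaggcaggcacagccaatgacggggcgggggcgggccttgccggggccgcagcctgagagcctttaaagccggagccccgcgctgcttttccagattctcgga
Ctsd chr1:206968822-206969071 (- strand): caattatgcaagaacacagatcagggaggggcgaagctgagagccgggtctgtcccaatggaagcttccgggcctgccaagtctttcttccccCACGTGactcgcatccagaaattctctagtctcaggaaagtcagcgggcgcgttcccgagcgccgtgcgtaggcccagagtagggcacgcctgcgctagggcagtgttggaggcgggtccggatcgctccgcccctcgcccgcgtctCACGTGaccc

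The Ctss region held GAGGAAGT on the opposite strand, with its first printed base 17 bases before the start, and TATAAA on the opposite strand at 238 bases. GAGGAAGT occurred in 2.04% of the 33469 promoter windows of the same length, and TATAAA in 12.93%. The Ctsd region held CACGTG at 157 and 10 bases, a motif present in 5.59% of all windows. Of 7 cathepsin genes with a window, Ctsz included, Ctsc also held GAGGAAGT, at 248 bases on the opposite strand. None of the 3 motifs lay in the Ctsk, Ctsl, Ctsh or Ctsz windows. A match is only a run of letters, and no binding was measured.

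Ctsl encodes cathepsin L, the abundant endopeptidase of lysosomes that also matures other cathepsins. Its probe (ILMN_1351117) read 14.09, 14.13 and 14.10 in tTA and 13.33, 13.41 and 13.66 in M337V on days 3, 4 and 6. The controls had an SD of 0.022 (n = 3), and all 3 M337V arrays lay below them. The difference was -0.76, -0.72 and -0.44 by day, and Ctsl fell by 0.64 ± 0.11 in the fit (SE, n = 3 days, 95% interval -0.92 to -0.37, adjusted p = 0.0159). The signals before normalization were 18240, 17870 and 18080 in tTA and 8244, 12060 and 14610 in M337V, in the same direction on each day. The call was lost on leaving out the pair of day 3 (adjusted p = 0.054) or of day 4 (0.0921), and held under the other 12 of 14 alternatives (range over all 14, 6.6e-05 to 0.0921).

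Of 10 fibroblast and meningeal genes tested, 5 fell, 1 rose and 4 did not pass, with a summed signal of 41387 to 58636 in tTA and 19032 to 32035 in M337V. With no filter on dim probes, 5 of the 12 such genes on the array fell and 1 rose. Over all genes, 9.85% were called lower and 9.75% higher, or 4.64% and 4.96% with no filter. The part of fibroblast and meningeal cells in the Ctsl result was not tested. The profiles nearest to Ctsl were those of Ptk2b, a tyrosine kinase (distance 0.08), Gtpbp2, a GTP-binding protein (0.09), and Ier5, an immediate early gene (0.13). Their differences were -0.59, -0.66 and -0.54, of a sign that the choice by profile fixed.

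Ctsk encodes cathepsin K, the collagen-degrading enzyme of osteoclasts. It lies on chromosome 2 with Ctss, with 1 annotated gene between them on GRCr8. Its probe (ILMN_1367924) was dim but detected on all 6 arrays, at 5.02, 5.30 and 5.41 in tTA and 5.90, 5.78 and 5.60 in M337V on days 3, 4 and 6. On this scale the M337V arrays were all above the controls, with the smallest gap on day 6. The difference was 0.88, 0.48 and 0.20 by day and 0.52 ± 0.15 in the fit (adjusted p = 0.0684), which did not pass. In the deposited values it was 0.35, 0.09 and -0.02 by day, so that the sign turned on day 6 and the groups overlapped, and the fit gave 0.14, against 0.19 without background correction. It passed under 5 of 14 alternatives (0.0152 to 0.313). From day 3 to day 6 the level changed by 0.39 in tTA and by -0.30 in M337V, and the slope of the difference was -0.22 per day (limma, unadjusted p = 0.0453, adjusted p = 0.501).

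Ctsb encodes cathepsin B, an endopeptidase and carboxypeptidase found in most cells. Its probe (ILMN_1376513) read 13.18, 13.50 and 13.78 in tTA and 13.64, 14.11 and 14.39 in M337V on days 3, 4 and 6. The groups overlap because the level climbed with the day in both genotypes, yet M337V was the higher of the pair on every day. The difference was 0.46, 0.61 and 0.61 by day, and Ctsb rose by 0.56 ± 0.10 in the fit (SE, n = 3 days, 95% interval 0.32 to 0.81, adjusted p = 0.0162). This call rests on comparing arrays of the same day, since a fit without the replicate block of days gave the same difference with an adjusted p of 0.163. The call was also lost with median scaling (0.0796), without day 4 (0.101) and without day 6 (0.0568), over a range of 7.9e-05 to 0.163 in 14 alternatives. Nearest in profile were Slc6a15, a neutral amino acid transporter (0.18), Itpka, an inositol trisphosphate kinase (0.21), and Smox, spermine oxidase (0.22), with differences of 0.55, 0.58 and 0.45. The choice by profile fixed their sign.

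Ctsh encodes cathepsin H, an aminopeptidase. Its probe (ILMN_1367864) read 9.33, 9.91 and 9.67 in tTA and 9.77, 10.13 and 10.22 in M337V on days 3, 4 and 6. M337V was higher on each day, and the day 4 control lay above the day 3 M337V array, so that the groups overlap. The difference was 0.44, 0.22 and 0.54 by day and 0.40 ± 0.11 in the fit (adjusted p = 0.0562). It did not pass, and passed under 5 of 14 alternatives (0.00429 to 0.214).

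Ctsc encodes cathepsin C, or dipeptidyl peptidase I, which activates serine proteases of immune granules. Its probe (ILMN_1359951) read 11.47, 11.63 and 11.42 in tTA and 10.97, 11.20 and 11.23 in M337V on days 3, 4 and 6. All M337V arrays lay below all controls, least so on day 6. The difference was -0.50, -0.43 and -0.18 by day and -0.37 ± 0.11 in the fit (adjusted p = 0.0699), and passed under 5 of 14 alternatives (0.00337 to 0.277).

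Ctsd encodes cathepsin D, the aspartic protease of lysosomes. Its probe (ILMN_1358267) read 11.44, 11.22 and 11.36 in tTA and 10.80, 10.79 and 11.14 in M337V on days 3, 4 and 6. Again the M337V arrays were the lower ones throughout, with the smallest gap on day 6. The difference was -0.64, -0.43 and -0.21 by day and -0.43 ± 0.12 in the fit (adjusted p = 0.06), and passed under 5 of 14 alternatives (0.00256 to 0.213).

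For Ctsc and Ctsd, as for Ctsk above, the direction on day 6 depended on the scaling. Before normalization the M337V to tTA signal ratio was 0.533, 0.852 and 1.04 for Ctsc on days 3, 4 and 6, and 0.489, 0.864 and 1.03 for Ctsd. The mean signal of all probes was 554 on the M337V array of day 6 and 474 on its control. In the deposited values, scaled by the authors, the day 6 difference was -0.31 for Ctsc and -0.32 for Ctsd. Both normalizations thus placed Ctsc and Ctsd lower on every day, and the unscaled signals did so on days 3 and 4.

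**Figure D3:**
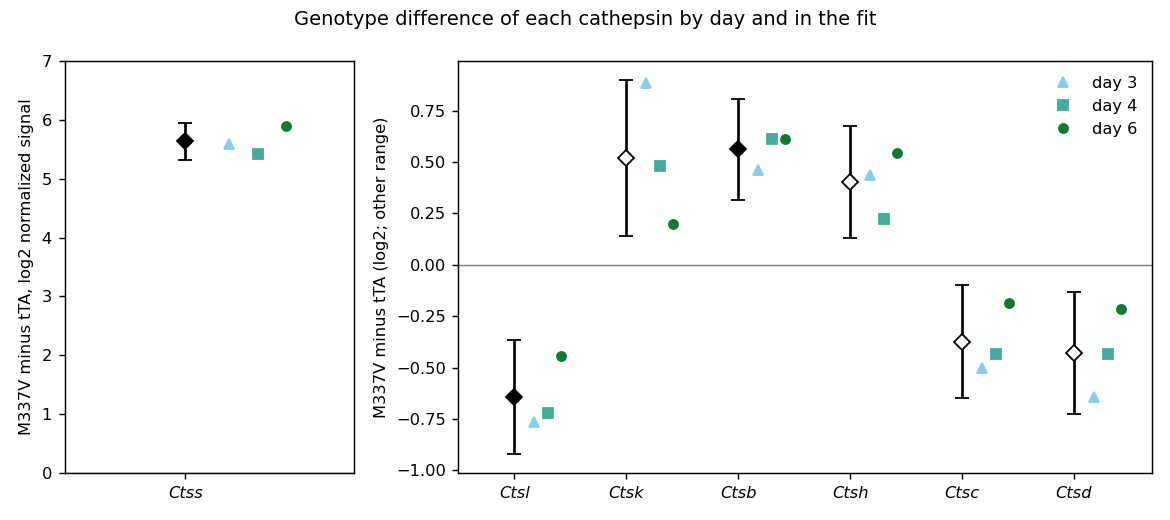
M337V minus tTA difference (log2 normalized signal) of each cathepsin, with diamonds for the fit and bars for its 95% interval, filled where the adjusted p is under 0.05, and 1 point per day beside it. Ctss sits near 5.64 in the left panel, and in the right panel, drawn on another range, the differences of Ctsl, Ctsk, Ctsc and Ctsd are all largest in size on day 3 and smallest on day 6.

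In the reported normalization the 7 genes each kept 1 sign on all 3 days, 4 higher and 3 lower, but on day 6 the sign of Ctsk turned in the deposited values and those of Ctsc and Ctsd in the unscaled signals. In 5 of 7, Ctsk among them, the normalized values of the 2 groups did not overlap, beside 34.0% of all genes tested. No cathepsin was 2-fold lower on any day, beside 2.33%, 1.77% and 2.26% of the genes detected on days 3, 4 and 6. Among the 21 pairs of cathepsins the closest profiles were those of Ctsl and Ctsd (distance 0.33), Ctsc and Ctsd (0.38), Ctsc and Ctsl (0.39) and Ctsb and Ctsh (0.47). Each of these pairs joined genes whose differences had the same sign, and Ctss lay at least 6.33 from each of the others. Both follow from the measure, since the distance includes the genotype difference on the same arrays.

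The remaining nearest profiles were mostly of genes with no lysosomal role. Ctsc lay closest to the calcium sensor Stim1 (0.12), the adiponectin receptor Adipor2 (0.13) and the phosphatase Ppm1b (0.13). Ctsd lay closest to the acetylcholine receptor subunit Chrna2 (0.11), Champ1 (0.12) and the adenylate kinase Ak4 (0.14). For Ctsh they were the mitochondrial ribosomal protein Mrpl37 (0.16), Zfp612 (0.19) and the polarity protein Vangl2 (0.20). For Ctsk they were the dynein assembly factor Dnaaf2 (0.10), Rnf112 (0.19) and the neuronal gene Stmn2 (0.19).

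Of the 7 cathepsins, 1 passed the test of day 6 against day 3. Over both genotypes Ctss rose by 1.54 ± 0.16 (SE, adjusted p = 0.0244), and by 1.70 in M337V. The size over both genotypes rests partly on control values of days 3 and 4 that were not above background. Over all genes tested, 1.73% were called higher on day 6 and 1.11% lower. The call of Ctss was lost on leaving out the tTA array of day 3 (adjusted p = 0.106) or day 4 (0.055) or the M337V array of day 3 (0.0719), day 4 (0.055) or day 6 (0.0794), and held without the tTA array of day 6 (0.0382). Ctsb was 0.68 ± 0.12 higher on day 6 (adjusted p = 0.0521), by 0.60 in tTA and 0.76 in M337V, and passed under 6 of 15 alternatives (0.000346 to 0.174). Ctsh was 0.40 ± 0.13 higher (adjusted p = 0.167), and the other 4 cathepsins differed by 0.04 to 0.17.

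Whether the genotype difference grew or shrank over the days was tested as a slope. For Ctss it was 0.12 ± 0.09 per day (adjusted p = 0.716). The signal ratio of Ctss before normalization was 9.78, 13.2 and 32.8 on days 3, 4 and 6, and the slope was 0.39 without background correction (adjusted p = 3.84e-07), 0.41 with the deposited values (1.04e-06) and 0.34 with an offset of 50 (0.000944), over a range of 3.84e-07 to 0.757 in 8 alternatives. The slope of Ctss was thus called under 3 of those 8 alternatives. Its SE was 0.065 for every cathepsin without background correction, 0.07 with the deposited values and 0.076 to 0.077 with an offset of 50. These 3 p-values thus rest on a spread shared by all genes, and hardly on that of Ctss, whose fit leaves 1 residual degree of freedom. No cathepsin passed in the reported fit, and 0% of all genes did in limma, where 741 of 7580 had an unadjusted p under 0.05.

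Genes that act on cathepsins were described by lists, with the range of adjusted p over the alternatives where a call was lost in more than 1. Counts in these lists stand beside 9.75% of all genes tested called higher and 9.85% called lower. With no filter on dim probes those shares were 4.96% and 4.64%. Of 7 cathepsin inhibitors tested, 2 rose, 2 fell and 3 did not pass (median -0.02). With no filter on dim probes, 1 of the 15 on the array rose and 2 fell. Serpinb1a, an inhibitor of neutrophil-type serine proteases and of some cysteine cathepsins, rose by 1.87 ± 0.16 (adjusted p = 0.00195). Cst6, cystatin M, passed the filter through its M337V arrays, with 1 of 3 controls above background. It was at least 1.995-fold higher on the background-corrected scale with an offset of 16 (adjusted p = 0.0393). Its fitted difference fell to 0.39 in the lowest alternative, and the call was lost in 5 of 13 (1e-04 to 0.137). Serpinb6a, an inhibitor of cathepsin G, fell by 0.59 ± 0.10 (adjusted p = 0.0169), a call lost in 2 of 14 alternatives (8.78e-05 to 0.107). Cst3, cystatin C, the secreted cathepsin inhibitor of astrocytes, fell by 0.44 ± 0.10 (adjusted p = 0.0347), lower by 0.44, 0.53 and 0.34 on the log2 scale on days 3, 4 and 6. That call was lost in 4 of 14 alternatives (0.00047 to 0.223).

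Of 15 genes for processing and sorting of lysosomal enzymes, 2 fell, none rose and 13 did not pass (median -0.10). The 2 of 15 that fell are near the 9.85% of all genes tested that were called lower. Igf2r, the cation-independent mannose 6-phosphate receptor that carries cathepsin precursors, fell by 0.66 ± 0.10 (adjusted p = 0.0122). Sumf1, which activates sulfatases, fell by 0.48 ± 0.10 (adjusted p = 0.0256), a call lost in 4 of 14 alternatives (0.00221 to 0.151), median scaling among them. Lgmn, the legumain that processes cathepsins, differed by -0.0033 ± 0.14 (adjusted p = 0.989), and M6pr, the cation-dependent receptor, 0.16 ± 0.11 (0.339). Both were looked at outside the rule for named genes.

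Among 25 lysosomal glycosidases and other hydrolases, 1 rose, 4 fell and 20 did not pass (median -0.14). Over all genes tested, 9.75% were called higher and 9.85% lower. Galc, the galactosylceramidase, rose by 0.79 ± 0.13 (adjusted p = 0.0125). Glb1, beta-galactosidase, fell by 0.61 ± 0.12, the GM2 activator Gm2a by 0.53 ± 0.12 and the ceramidase Asah1 by 0.49 ± 0.11 (adjusted p = 0.02, 0.0324 and 0.0301). Of 14 alternatives, the call was lost in 4 for Glb1 (0.00304 to 0.0792), 7 for Gm2a (0.00801 to 0.172) and 3 for Asah1 (0.000383 to 0.173). Of 18 lysosomal membrane genes, 3 rose, none fell and 15 did not pass (median -0.04). Those that rose were Laptm5, a protein of blood cell lysosomes that is also on the microglia list (2.98 ± 0.20), the peptide and histidine transporter Slc15a3 (at least 2.81-fold) and the phagosome metal transporter Slc11a1 (at least 1.73-fold), with adjusted p of 0.00113, 0.0109 and 0.0217. The last pair were detected on no control array and entered the test through their M337V arrays. The count of 3 is thus shaped by the filter, and all 3 were also called with no filter. The bounds for Slc15a3 and Slc11a1 hold only on the background-corrected scale with an offset of 16. Their lowest log2 differences over the alternatives were 0.73 and 0.48. Laptm5 had 2 of 3 controls above background, and its lowest log2 difference was 1.65.

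Of 18 proton pump subunits, which acidify the lysosome, Atp6ap1 alone passed, falling by 0.45 ± 0.10 (adjusted p = 0.0364), and the list's median was -0.17. That call was lost in 5 of 14 alternatives (0.00163 to 0.162). Of 18 genes of lysosomal transcription factors and autophagy, Flcn, which holds back lysosomal transcription factors (it fell by 0.49 ± 0.11, adjusted p = 0.0314), and Wipi1, of the forming autophagosome (0.47 ± 0.09 lower, 0.0234), passed, and the median was -0.21. Both calls were lost in 4 of 14 alternatives each (0.00121 to 0.11 for Flcn, 0.000448 to 0.122 for Wipi1). Over all genes tested the median was -0.05, with 9.75% called higher and 9.85% lower.

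Class II antigen presentation, in which cathepsin S acts, had 6 genes tested, of which 2 rose, none fell and 4 did not pass (median 0.51). With no filter on dim probes, 2 of the 13 on the array rose and none fell. Over all genes, 9.75% were called higher in the reported fit and 4.96% with no filter. RT1-DMb, a chain of the peptide-loading protein, had 2 of 3 controls above background. It was at least 21.7-fold higher on the background-corrected scale with an offset of 16 (adjusted p = 0.000726). The log2 difference of RT1-DMb was 3 in the lowest alternative. Its partner RT1-DMa rose by 1.20 ± 0.24 (adjusted p = 0.025). Cd74, the invariant chain itself, was not detected on any of the 6 arrays. Of the granule proteases and partners on the list for cathepsin C, only Prtn3, proteinase 3, was tested, with 1 of 3 controls above background. It was at least 1.46-fold higher on the background-corrected scale with an offset of 16 (adjusted p = 0.0191). It too passed the filter through its M337V arrays, its difference was 0.17 in the deposited values (adjusted p = 0.212), and the call was lost in 3 of 13 alternatives (0.00484 to 0.212). Of 7 other cathepsin genes with a named probe, 0 were detected on any array, and Tinagl1, a cathepsin B relative without protease activity, differed by -0.27 ± 0.12 (adjusted p = 0.186).

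**Figure D4:**
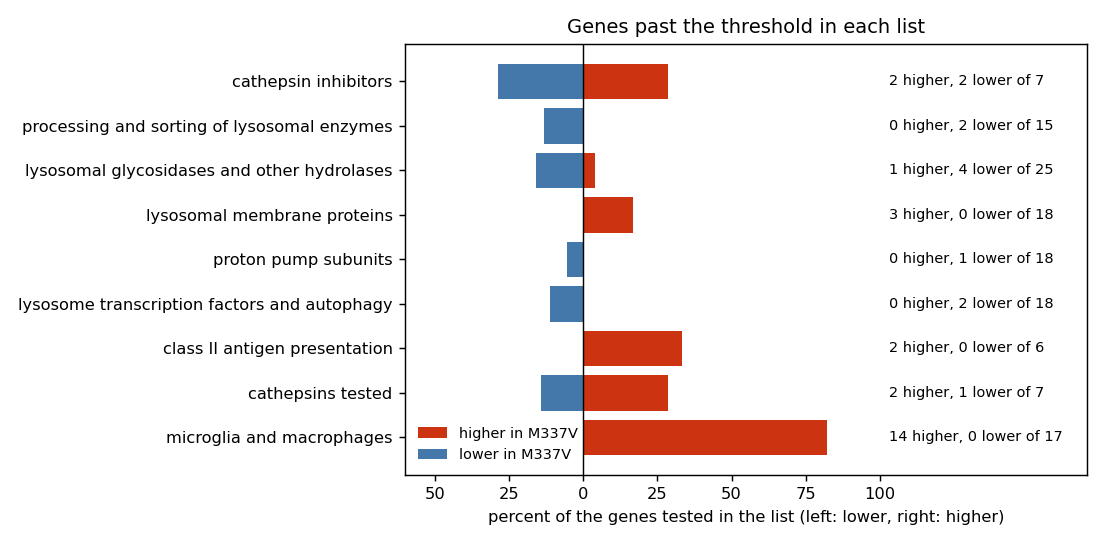
Share of the tested genes of each list (percent, bars to the right for genes called higher in M337V and to the left for genes called lower), with the counts at the right. Microglia and macrophages stand at 14 of 17 higher, and most lysosomal lists have between 0 and 4 genes called in either direction. Over all genes tested, 9.75% were called higher and 9.85% lower.

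Some marker genes of other cell types moved too, where 9.75% of all genes tested were called higher and 9.85% lower. In the oligodendrocyte lineage 6 of 8 rose and none fell, with a summed signal of 3411 to 4006 in tTA and 7442 to 15957 in M337V. Of 9 neuronal genes, 5 rose and none fell, with sums of 2369 to 2948 and 5525 to 6373. The largest of these rises was that of Gap43, detected on all controls, at 4.94 ± 0.15 (SE, adjusted p = 0.000133). All 5 ependymal cilia genes rose, with sums of 431 to 856 and 1817 to 2994. Of 10 astrocyte genes, 3 rose and 2 fell, with sums of 71453 to 84083 and 84717 to 87643, and of 4 endothelial genes 2 rose and 1 fell, with sums of 127 to 137 and 159 to 181. Some of these counts are shaped by the filter, since 3 of the 8 oligodendrocyte genes were detected on only some controls. Among neuronal genes 1 was detected on no control and 3 on some, and among endothelial genes 1 and 2. With no filter, 6 of 11 oligodendrocyte, 5 of 11 neuronal, 5 of 6 ependymal and 2 of 6 endothelial genes rose and none fell. Of 10 astrocyte genes 2 rose and 2 fell. Over all genes, 4.96% were then called higher and 4.64% lower. The part of these cell types in the smaller differences of Ctsb, Ctsl and the other cathepsins was not tested.

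**Figure D5:**
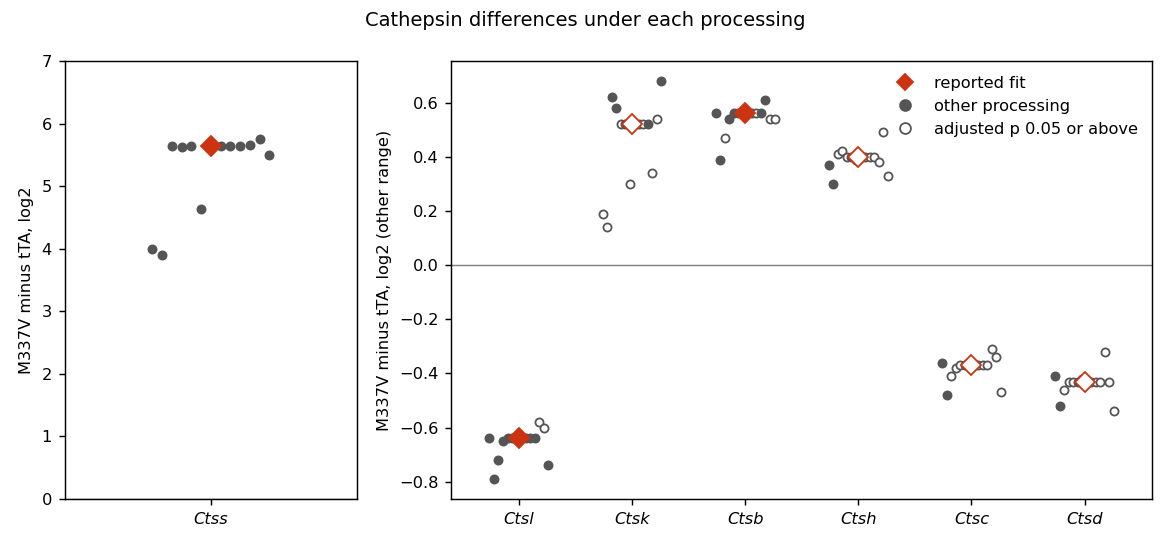
M337V minus tTA difference (log2) of each cathepsin in the reported fit (diamonds) and under each other processing or left-out pair (circles), open where the adjusted p is 0.05 or above. Ctss stays between 3.90 and 5.75 and is filled throughout, while each gene in the right panel keeps its sign and has both open and filled points.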

How the data were processed

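RNA of cultured rat astrocytes was hybridised to 6 Illumina beadchips and GenomeStudio, of a version that the sources used here do not give, exported the values, per the submitters' processing notes. The first deposited table, per the file headers, holds per probe and array a mean bead signal intensity, linear and not normalized, and a detection p-value against negative control beads. A second deposited table holds log2 values. Between arrays they differ as log2 signals less the upper quartile (75th percentile) of the array do, within 0.0015, and how the authors centred each probe is unknown. Its column medians were -0.15 to 0.07.

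Intensities were background-corrected (normexp from the detection p-values), given an offset of 16, quantile-normalized and log2-transformed in limma 3.58.1 (R 4.3.3). Background correction and offset set the size of differences of dim genes. Probes with detection p under 0.05 on at least 3 of 6 arrays were kept, and 43.8% to 48.3% of 22523 probes were detected per array. GEO's platform annotation gives 1 symbol to 13793 probes and not to the other 8730. Entrez identifiers of 13752 matched NCBI's rat table (GRCr8, used for names and neighbours) and 41 did not. The brightest kept probe stood for a gene. "At least" folds set dim control arrays at the lowest detected signal, and hold only on the background-corrected scale with the offset of 16.

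lmFit and eBayes were fitted with genotype and day as a factor (2 residual degrees of freedom, prior 3.53), and slopes with 1 (prior 4.71), so the errors rest largely on the other genes. The labels pair arrays by day, and deviations of paired arrays correlated at 0.44, 0.08 and 0.42 on days 3, 4 and 6. The fits were tested on simulated data. Alternatives were no background correction, the deposited values, median scaling, cyclic loess, other filters, offset 50, a variance trend, probe averaging, no block, linear day and left-out arrays. The number of arrays limits the precision. Members and lists were chosen with earlier results of these data known. Named genes were all cathepsins, up to 3 rises and 3 falls per list, and the 3 nearest profiles per cathepsin, with exceptions stated. Lists of cell types other than microglia and macrophages are given as counts and sums, with Gap43 and Gfap named, and Stmn2 as a nearest profile. No chip or scan batch was examined.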

Additional observations from a re-analysis of the deposited data

How the results depend on the processing

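In the reported fit 2 cathepsins rose and 1 fell. The number that fell was 3 (Ctsl, Ctsc and Ctsd) without background correction, with the deposited values, with detection on all 6 arrays, with an offset of 50 and with a variance trend. The number that rose was also 3 under each of these, and with cyclic loess and with day as a linear covariate. The genes differed. They were Ctss, Ctsb and Ctsk with cyclic loess and with linear day. With detection on all 6 arrays, where Ctss was not tested, they were Ctsb, Ctsh and Ctsk. Under the rest they were Ctss, Ctsb and Ctsh. With median scaling and without the day 6 pair, Ctss and Ctsk rose and Ctsb was not called. Without the replicate block of days 1 rose, and 966 genes were called in place of 1486. Leaving out a pair of arrays gave 1 to 2 that rose, 0 to 1 that fell and 631 to 1055 genes called. All 7 cathepsins kept the sign of the genotype difference under every alternative that gave a value (Ctss has none with detection on all 6 arrays), while Gfap turned to -0.11 in the deposited values and -0.03 after median scaling. Of all called genes 49.7% were higher, against 64.5% and 59.2% after median scaling and cyclic loess, 39.7% in the deposited values and 40.9% with detection on all 6 arrays.

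For day 6 against day 3, 1 cathepsin rose and 215 genes were called. Cathepsins called were 2 without background correction, with median scaling and with an offset of 50, and 3 with the deposited values and a variance trend. Genes called were 791 without background correction, 698 with the deposited values, 634 with median scaling, 493 with detection on all 6 arrays, 597 with an offset of 50 and 927 with a variance trend. Leaving out 1 array gave 0 to 1 cathepsins and 0 to 131 genes, with differences from -0.03 to 0.25 for Ctsc, -0.03 to 0.29 for Ctsd and -0.23 to 0.32 for Ctsk, whose value with the deposited values was -0.07.

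For the slope, Ctss was the 1 cathepsin called without background correction, with the deposited values and with an offset of 50, beside 0 reported. Genes called were 235, 189 and 254 there, 195 with median scaling, 1 without a filter, 8 with detection on all 6 arrays and 193 with a variance trend. The cause of these shifts was not tested. Signal near background limits Ctss in controls and Ctsk on all arrays.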
